A study of Homo sapiens with 12 samples.

Results

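The comparison set SKM1 cells given APR-246 alone (APR) against untreated SKM1 cells (NT), on 6 of the 12 arrays of the series, 3 in each group. Its genes were all rows of the deposited table that carry 1 gene symbol, 28129 of 29413 rows, which gave 28125 genes after repeated symbols were reduced to 1 row. SKM1 is an established human cell line from a myeloid leukaemia. The APR cells had been cultured with APR-246 at its IC50, a standard inhibitory concentration, and the NT cells with neither drug. RNA of both groups was taken at 18 h. The other 6 arrays, from cells given APR-246 and 5-azacytidine together (APR-AZA) and cells given 5-azacytidine alone (AZA), each drug again at its IC50, were used to look at the same drug on arrays that the first comparison does not contain. The sources used here give no drug concentrations in units, and every group is the same single cell line. No label tells whether the arrays of a group are separate cultures. The p-values below therefore speak only to variation among these arrays, and part or all of it may be technical.

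APR-246 is a prodrug that turns into methylene quinuclidinone, a small electrophile that binds the thiol groups of cysteines in proteins and of glutathione. It is known for lowering cellular glutathione. Cells sense electrophiles in part through KEAP1, a cysteine-rich adaptor that marks the transcription factor NRF2 (NFE2L2) for degradation. When KEAP1 is modified, NRF2 accumulates, pairs with small MAF proteins and binds antioxidant response elements beside genes for quinone reduction, glutathione synthesis, thioredoxin recycling, NADPH supply and iron storage. Damaged or unfolded cytosolic proteins are sensed separately, through HSF1, which binds heat shock elements beside chaperone genes.

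NQO1, which reduces quinones with NADPH and is a classical NRF2 target, was the only gene that passed the test, and it rose in APR cells. The next genes in order of the moderated t were ZNF366, RAB7B, MSC and LUCAT1, all with 3 APR arrays above the 3 NT arrays. On the lower side the order began with NDNF, C11orf96 and LINC00261, with 3 APR arrays below the 3 NT arrays. None of these passed. The limma fit, with Benjamini-Hochberg adjustment over all 28125 genes and a threshold of 0.05, thus called 1 gene, or 0.00356% of the genes tested.

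Most differences between the groups were small. An unadjusted p under 0.05 was met by 1095 genes, 3.89% of those tested, with 513 higher (1.82%) and 582 lower (2.07%), while 1406 would be met at that threshold if no gene differed. The 3 APR arrays lay wholly above the 3 NT arrays in 968 genes (3.44%) and wholly below them in 1135 (4.04%). The log2 change was above 0 in 49.7% of genes. It was within 0.5 on the log2 scale, or 1.41-fold, in 99.7% of genes, and its standard deviation over all genes was 0.125, beside a median standard error of 0.107. Only LUCAT1 was at 1 or more on the log2 scale. LOC107987303 and LINC00494 were at -1.16 and -1.09, and neither passed the test. LINC00494 had 4.31, 2.92 and 4.81 in the APR arrays and 4.75, 5.60 and 4.97 in the NT arrays, so its groups overlap.

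The arrays themselves stood close together. APR and NT arrays correlated at 0.994 to 0.9963 with each other over all rows, beside 0.9938 to 0.9954 inside the APR group and 0.9941 to 0.9945 inside the NT group, so the 3 ranges overlap. The first 2 principal components of the 6 arrays held 26% and 25.5% of the variance, and neither separated the groups. On the first one, the second APR array and the first NT array stood together at the low end. Of 10 myeloid markers, 9 were measured, and all 9 lay above the median of all genes on each of the 6 arrays. They include LYZ and MPO, both granule proteins, and the leukocyte phosphatase PTPRC. The T cell markers CD3D, CD3E and CD3G, the B cell marker MS4A1 and the erythroid markers HBB and ALAS2 lay below the array median on all 6. The T cell marker CD8A, the B cell marker CD79A, the keratins KRT8 and KRT18 and the collagen COL1A1 lay above it on all 6, so the marker lists other than the myeloid and erythroid ones are mixed. The epithelial adhesion gene EPCAM was far above it, at a mean of 9.62 in APR arrays and 9.67 in NT arrays, although CDH1 was below it in both. The summed log2 level of the myeloid markers was 13.86 to 13.93 in APR arrays and 13.93 to 14.07 in NT arrays. No marker was called.

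**Figure D1:**
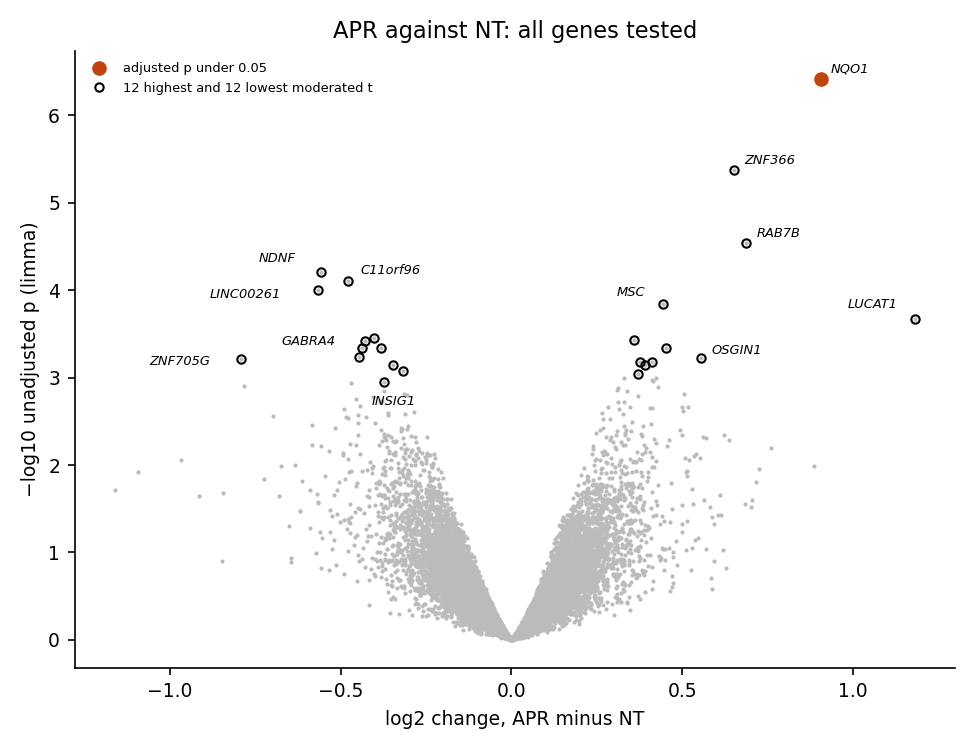
Log2 change (APR minus NT, horizontal axis) against -log10 of the unadjusted limma p (vertical axis) for the 28125 genes; grey points are genes, open circles the 12 highest and 12 lowest moderated t, and the filled circle the 1 gene with an adjusted p under 0.05. NQO1 stands at 0.91 and LUCAT1 furthest right at 1.18.

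Promoter windows from RefSeq (GRCh38.p14), running from 250 bases before to 50 bases after an annotated start, are printed for 5 genes because the values below turn on them: NQO1, the gene that was called; ME1 and GCLM, the NRF2 targets that follow and whose windows hold the searched letters; and HSPA1A and HSPA1B, the inducible HSP70 genes. The antioxidant response element was searched by its core, TGACNNNGC, on both strands. The heat shock element was searched as GAANNTTC, which reads the same on both strands. Capitals mark the matches. NQO1 lies on the minus strand at chr16:69726511-69726810, ME1 on the minus strand at chr6:83431002-83431301 and GCLM on the minus strand at chr1:93909381-93909680. HSPA1A and HSPA1B lie on the plus strand at chr6:31815293-31815592 and chr6:31827488-31827787.
NQO1: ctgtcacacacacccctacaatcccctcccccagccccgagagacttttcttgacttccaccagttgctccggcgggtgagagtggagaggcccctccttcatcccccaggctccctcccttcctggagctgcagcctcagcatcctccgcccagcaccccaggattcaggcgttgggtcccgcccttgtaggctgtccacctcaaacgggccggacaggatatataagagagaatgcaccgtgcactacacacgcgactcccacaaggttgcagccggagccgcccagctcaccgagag
ME1: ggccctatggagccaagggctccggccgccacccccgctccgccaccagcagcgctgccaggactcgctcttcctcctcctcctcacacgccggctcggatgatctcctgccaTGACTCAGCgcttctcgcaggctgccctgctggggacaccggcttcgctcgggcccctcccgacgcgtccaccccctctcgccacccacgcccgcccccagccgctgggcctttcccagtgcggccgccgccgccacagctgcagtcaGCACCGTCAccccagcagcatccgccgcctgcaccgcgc
GCLM: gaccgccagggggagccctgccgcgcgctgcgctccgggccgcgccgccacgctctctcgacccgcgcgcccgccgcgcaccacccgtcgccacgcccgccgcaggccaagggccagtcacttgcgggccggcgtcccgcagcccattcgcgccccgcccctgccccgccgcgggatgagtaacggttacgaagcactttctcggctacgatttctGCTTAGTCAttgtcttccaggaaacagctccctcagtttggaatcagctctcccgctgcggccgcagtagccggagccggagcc
HSPA1A: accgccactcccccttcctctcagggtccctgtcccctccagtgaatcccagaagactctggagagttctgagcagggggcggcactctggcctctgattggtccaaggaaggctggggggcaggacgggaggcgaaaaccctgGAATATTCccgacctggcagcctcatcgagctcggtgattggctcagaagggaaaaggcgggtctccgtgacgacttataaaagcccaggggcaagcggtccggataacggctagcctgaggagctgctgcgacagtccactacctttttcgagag
HSPA1B: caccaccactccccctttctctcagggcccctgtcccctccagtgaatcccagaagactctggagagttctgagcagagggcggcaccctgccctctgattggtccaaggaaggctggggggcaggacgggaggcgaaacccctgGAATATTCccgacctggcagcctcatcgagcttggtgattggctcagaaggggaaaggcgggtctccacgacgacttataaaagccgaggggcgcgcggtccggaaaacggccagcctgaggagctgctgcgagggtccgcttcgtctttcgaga

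The ME1 window held 2 cores, the GCLM window 1, and the NQO1 window 0, which says only that these letters are not in this stretch. OSGIN1, another target described below, also had 0, and TXNRD1 had 2 at its first annotated start and 1 at the other. Of 26 NRF2 targets with a window, 9 genes (34.6%) held the core, beside 16.1% of 27305 genes with a window and 13 of the 48 chaperone genes below (27.1%). HSPA1A and HSPA1B each held 1 heat shock match with the same letters, GAATATTC. Of 48 cytosolic chaperone and regulator genes with a window, 19 (39.6%) held GAANNTTC, beside 8.21% of all genes. These are matches of letters, not sites shown to be bound.

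NQO1 had log2 signals of 8.73, 8.98 and 8.68 in the APR arrays, against 7.97, 7.85 and 7.85 in the NT arrays. Every APR array stood above every NT array, and the space between the groups was wider than the spread inside either. The means were 8.80 ± 0.17 in APR and 7.89 ± 0.07 in NT (SD, n = 3 each), a log2 change of 0.91 ± 0.09 (SE) with a 95% interval of 0.70 to 1.11, or 1.87-fold, with an adjusted p of 0.0107 (limma). The call did not hold without the second NT array (adjusted p = 0.114) or the third (0.116), nor without variance moderation (0.202), with the 2 groups fitted alone (0.437) or with the replicate number as a block (0.0533). Leaving out each of the 6 arrays in turn gave log2 changes of 0.81 to 0.97. In what follows, a log2 change is APR minus NT with its standard error, n = 3 in each group, and no gene other than NQO1 was called in the main test.

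The machinery that controls NRF2 showed no called member among 13 of 14 genes measured. NFE2L2 itself, whose protein is mainly controlled through its stability, had 9.29, 9.26 and 9.06 in APR arrays and 8.99, 9.20 and 9.19 in NT arrays, a log2 change of 0.08 ± 0.10. KEAP1 had a log2 change of 0.17 ± 0.11 and MAFG, a small MAF partner that is itself an NRF2 target, one of 0.19 ± 0.11, both with overlapping groups. Of the 13, 2 related factors lay wholly below the NT arrays and 0 wholly above, beside 4.04% and 3.44% of all genes. NFE2, the blood-cell relative of NRF2, had 5.76, 5.85 and 5.78 in APR arrays and 6.03, 6.23 and 6.02 in NT arrays (-0.30 ± 0.14), and NFE2L3 had a log2 change of -0.19 ± 0.08.

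Of 41 NRF2 target genes listed, 36 were measured. Their median log2 change was 0.08, beside -0.00 over all genes, and 26 of the 36 were above 0, beside 49.7% of all genes. The 3 APR arrays lay wholly above the NT arrays in 12 of the 36, and wholly below in 0, beside 3.44% and 4.04% of all genes. At an unadjusted p under 0.05 (limma) there were 10, all higher, beside 1.82% of all genes, and leaving out 1 array at a time gave 9 to 12. The list and its members were drawn up with earlier results of these data known, so these counts describe the list and do not test it. Of the medians of all 38 lists, 22 changed sign when 1 array was left out and 13 more moved by over 1.5 times. The 3 that did neither were those of the NRF2 targets, the HSP40 genes and the monocyte genes. The first APR array stood above all NT arrays in 15 of the 36 members, the second in 22 and the third in 25. Over all genes the 3 arrays did so in 6157, 6015 and 7301.

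OSGIN1, an oxidative-stress-induced growth inhibitor, followed NQO1 in size, with 5.78, 6.13 and 5.85 in APR arrays and 5.58, 5.19 and 5.31 in NT arrays. The lowest APR array stood just above the highest NT array, and the log2 change was 0.56 ± 0.12. ME1, the cytosolic malic enzyme that makes NADPH, had 8.26, 8.33 and 8.17 in APR arrays and 7.74, 7.74 and 8.05 in NT arrays (0.42 ± 0.10). Here the third NT array came close to the APR group. PGD, the NADPH-making dehydrogenase of the pentose phosphate pathway, had 10.99, 11.40 and 11.36 in APR arrays and 11.07, 10.91 and 10.78 in NT arrays (0.33 ± 0.11). Its first APR array fell among the NT arrays, so the groups overlap. Of 16 NADPH-making and pentose phosphate genes measured, 11 were above 0, with a median of 0.02. TALDO1 and TKT, of the same pathway, were at 0.08 and 0.04.

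Among glutathione genes, the 4 without overlap, out of 24 measured, serve synthesis, cystine supply and recycling, and all 4 are higher, beside 3.44% of all genes. GCLM, the modifier subunit of the enzyme that begins glutathione synthesis, had 8.90, 8.87 and 8.71 in APR arrays and 8.54, 8.35 and 8.60 in NT arrays (0.33 ± 0.09). GCLC, the catalytic subunit of the same enzyme, had 9.16, 9.10 and 9.04 in APR arrays and 8.94, 8.83 and 9.02 in NT arrays (0.17 ± 0.09). Both subunits stood higher in every APR array, GCLC by a narrow gap. SLC7A11, which imports cystine, had 8.28, 8.37 and 8.28 in APR arrays and 7.98, 7.87 and 8.15 in NT arrays (0.31 ± 0.09). GSR, which returns oxidised glutathione to its reduced form, had 10.31, 10.51 and 10.48 in APR arrays and 10.17, 10.14 and 10.06 in NT arrays (0.31 ± 0.08). In the other 20 genes of the list the groups overlapped. The median of the list was -0.03 with 10 of 24 members above 0, and it was 0.04 without the first APR array, 0.02 without the first NT array and 0.01 without the second NT array. GPX4, the peroxidase that protects lipids with glutathione, was at -0.13 ± 0.09 with overlapping groups. The 14 glutathione S-transferases measured had a median of -0.01 and none without overlap.

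SRXN1, the sulfiredoxin that repairs over-oxidised peroxiredoxins, had 6.43, 6.51 and 6.64 in APR arrays and 6.29, 6.20 and 6.15 in NT arrays (0.31 ± 0.08). TXNRD1, the cytosolic thioredoxin reductase, a selenoprotein whose active site APR-246's product is known to attack, had 9.49, 9.55 and 9.52 in APR arrays and 9.36, 9.31 and 9.26 in NT arrays (0.21 ± 0.07). Both were clear of the NT arrays. Of 19 thioredoxin and peroxiredoxin genes measured, these were the only 2 wholly above, beside 3.44% of all genes. PRDX4, the peroxiredoxin of the endoplasmic reticulum, was the 1 wholly below (-0.23 ± 0.12), beside 4.04% of all genes. FTL, the ferritin light chain, had 12.18, 12.46 and 12.27 in APR arrays and 12.14, 11.97 and 11.98 in NT arrays (0.27 ± 0.09). FECH, which inserts iron into haem, had 7.71, 7.61 and 7.74 in APR arrays and 7.36, 7.47 and 7.47 in NT arrays (0.25 ± 0.08). With the haem transporter SLC48A1 (0.18 ± 0.09), these were the 3 of 20 iron and haem genes without overlap, beside 3.44% of all genes wholly above, and the median of the list was -0.01.

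Several well-known NRF2 targets did not stand apart. HMOX1, the inducible haem oxygenase, had 5.29, 5.18 and 5.12 in APR arrays and 5.36, 5.16 and 5.60 in NT arrays, a log2 change of -0.18 ± 0.11 with a 95% interval of -0.41 to 0.05. That interval leaves out an increase of the size measured for GCLM or GSR. EPHX1, an epoxide hydrolase, was at 0.08 ± 0.08. The aldo-keto reductases AKR1C2, AKR1C3 and AKR1B10 had log2 changes of -0.11, 0.06 and 0.04, and the exporters ABCC1, ABCC2, ABCC3 and ABCC4 ranged between -0.14 and 0.01. NQO1 was the only 1 of 19 quinone and carbonyl reductases whose groups did not overlap, beside 3.44% of all genes wholly above. The median of that list was 0.04, and it was -0.03 without the first APR array and 0.01 without the first NT array.

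**Figure D2:**
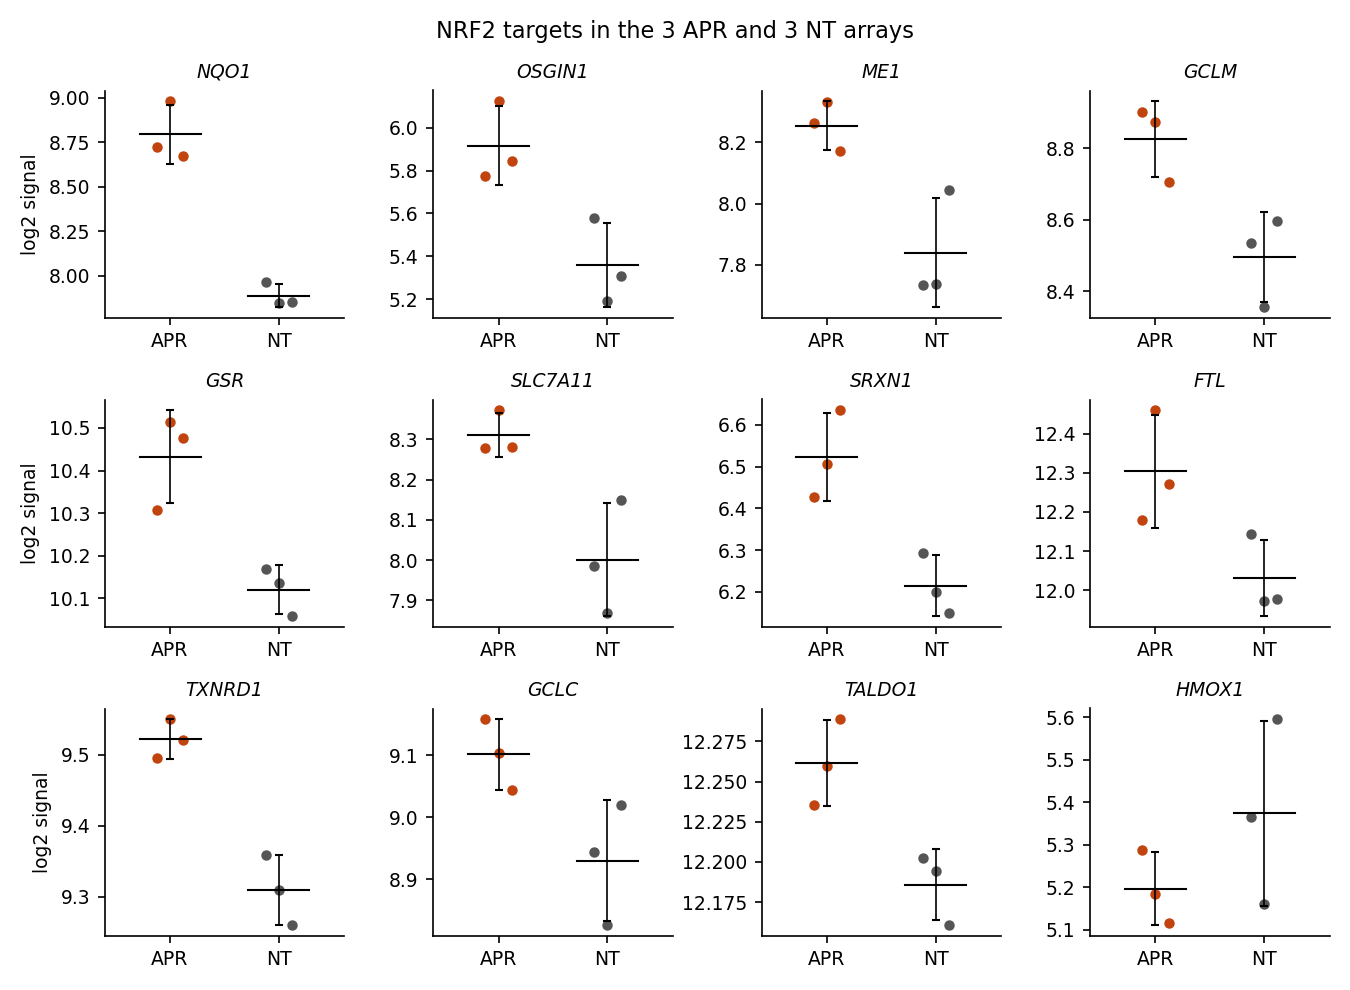
Log2 signal of 12 NRF2 targets in the 3 APR arrays (left, orange) and the 3 NT arrays (right, grey), with group means (bars) and SD (whiskers); each panel has its own vertical axis. APR arrays lie above NT arrays in 11 panels, by far the most in NQO1, and the groups overlap in HMOX1. The 12 were picked and are not typical of the list: APR arrays lay wholly above in 12 of the 36 targets measured.

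Of the other genes at the top of the order, ZNF366, a zinc finger protein known as a marker of dendritic cells, had 6.12, 5.91 and 5.96 in APR arrays and 5.30, 5.32 and 5.42 in NT arrays (0.65 ± 0.08, adjusted p = 0.0588, limma). The groups were well apart, and ZNF366 passed when the dimmest 30% of genes were left out of the adjustment (adjusted p = 0.0466). Under every other alternative it did not pass, with adjusted p-values of 0.0554 to 0.727 (limma). RAB7B, a small GTPase of late endosomes, had 6.74, 6.93 and 7.00 in APR arrays and 6.36, 6.25 and 5.99 in NT arrays (0.69 ± 0.11, adjusted p = 0.272). LUCAT1, a long non-coding RNA known to be induced by stress and by NRF2, had 4.26, 5.20 and 5.38 in APR arrays and 3.63, 3.77 and 3.89 in NT arrays (1.18 ± 0.23, adjusted p = 0.741). Its first APR array was far below the other APR arrays, and without that array the log2 change was 1.53 and the adjusted p 0.00779. LUCAT1 was not called when any other APR or NT array was left out (adjusted p of 0.610 or more, limma). MSC, a basic helix-loop-helix repressor, had 8.77, 9.04 and 8.80 in APR arrays and 8.44, 8.46 and 8.38 in NT arrays (0.44 ± 0.08). BIN2, a membrane-bending protein of leukocytes, RIT1, a RAS-related GTPase, TMTC1 and the cell cycle inhibitor CDKN1C had log2 changes of 0.36, 0.45, 0.38 and 0.37, each without overlap. The microRNA MIR626 and LOC101927263 (0.41 and 0.39) complete the 12.

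On the lower side, NDNF, a secreted neurotrophic factor, had 5.45, 5.55 and 5.26 in APR arrays and 5.93, 5.90 and 6.10 in NT arrays (-0.56 ± 0.09, adjusted p = 0.434, limma). C11orf96 had 4.29, 4.12 and 4.12 in APR arrays and 4.63, 4.62 and 4.72 in NT arrays (-0.48 ± 0.08). Both had compact groups that did not meet. GABRA4, a subunit of the GABA receptor, had 8.62, 8.43 and 8.61 in APR arrays and 8.90, 9.05 and 8.99 in NT arrays (-0.43 ± 0.09). CCL3L3, a chemokine, had 4.46, 4.47 and 4.46 in APR arrays and 4.78, 4.75 and 4.82 in NT arrays (-0.32 ± 0.07). It comes from a cluster of near-identical copies, so its probes may read several genes. The rest of the 12 were LINC00261, SYNGR3, RPL10, HEYL, LINC02767, ZNF705G, PSCA and INSIG1, at -0.35 to -0.79, and ZNF705G was the furthest down. Several of these signals lie near or below the median signal of 4.75. So do those of MIR626, LOC101927263 and, in NT arrays, LUCAT1 on the upper side. Low array values can be compressed, but whether fold changes were understated here was not tested. The SD of the log2 change was 0.13 over genes at or below that median and 0.119 over genes above it.

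The heat shock genes had small positive medians. HSPA1B, an inducible HSP70, had 10.70, 11.01 and 10.92 in APR arrays and 10.67, 10.62 and 10.44 in NT arrays (0.30 ± 0.09). HSPA1A, its near-identical copy, had 11.67, 12.11 and 11.92 in APR arrays and 11.74, 11.63 and 11.56 in NT arrays (0.26 ± 0.10). The first APR array was the low one in both, and for HSPA1A it fell inside the NT range. Probes for such close copies may not tell them apart. BAG3, a co-chaperone of HSP70, had 8.68, 8.88 and 8.90 in APR arrays and 8.62, 8.63 and 8.47 in NT arrays (0.24 ± 0.08). Of 14 HSP70 and HSP110 genes 12 were above 0, with a median of 0.06, of 14 HSP40 genes 10 with a median of 0.05, of 18 HSP90 genes and co-chaperones 12 with a median of 0.02, and of 10 small heat shock proteins and heat shock factors 8 with a median of 0.05. Each of these lists had 1 member wholly above the NT arrays and 0 below, beside 3.44% and 4.04% of all genes. The HSP70 and HSP110 median was 0.03 without the first NT array and 0.10 without the third. HSPA6, an HSP70 gene that is nearly silent without stress, was at 0.06. The 12 metallothionein and zinc genes measured, read by the zinc sensor MTF1, had 4 above 0 and a median of -0.03, which ranged between -0.08 without the first APR array and -0.00 without the third. MT1G and MT1X were the 2 without overlap, at -0.28 ± 0.12 and -0.20 ± 0.10, beside 4.04% of all genes wholly below.

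**Figure D3:**
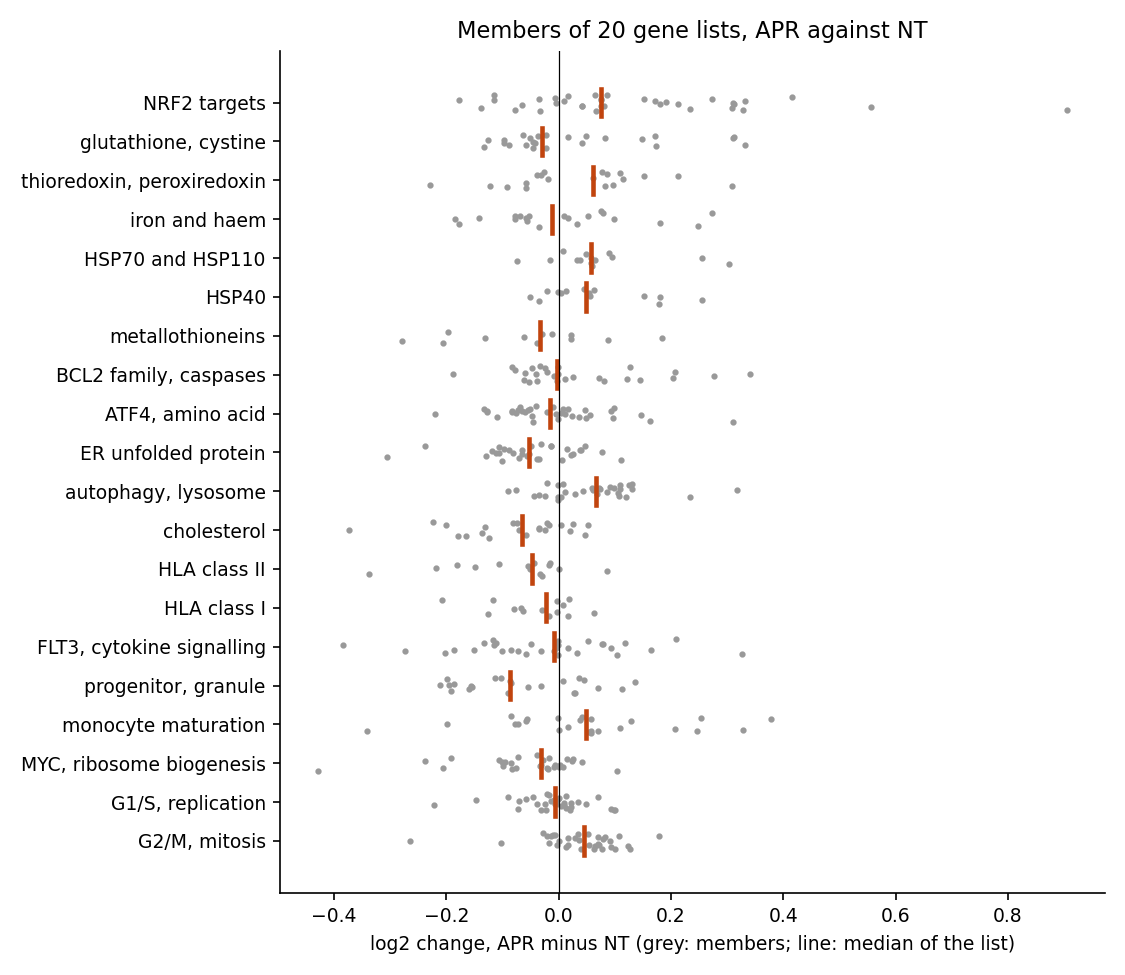
Log2 change (APR minus NT, horizontal axis) of the members of 20 gene lists; grey points are genes, with random vertical scatter, and orange lines the median of each list. Most members lie within 0.2 of 0, and NQO1 is the point furthest right, in the NRF2 list.

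Among BCL2 family and caspase genes, PMAIP1 and BBC3 had the highest log2 changes, and neither passed the test. PMAIP1 (NOXA), a BH3-only protein that opposes MCL1, had 8.77, 8.71 and 8.52 in APR arrays and 8.20, 8.43 and 8.36 in NT arrays (0.34 ± 0.10). BBC3 (PUMA), another BH3-only protein, had 5.53, 5.86 and 5.87 in APR arrays and 5.47, 5.62 and 5.33 in NT arrays (0.28 ± 0.11), with its first APR array inside the NT range. CDKN1A, the p21 cell cycle inhibitor, was at -0.10 ± 0.10 with a 95% interval of -0.31 to 0.11, and MDM2, a ubiquitin ligase, at 0.00 ± 0.10 with one of -0.21 to 0.22. Of 27 BCL2 family and caspase genes, 11 were above 0 and the median was -0.00, or 0.03 without the first APR array. CASP8, the initiator caspase of death receptors, had 8.45, 8.43 and 8.42 in APR arrays and 8.40, 8.18 and 8.12 in NT arrays (0.20 ± 0.12). BCL2 itself, the survival protein, lay wholly below the NT arrays at -0.19 ± 0.11. In all, 2 of the 27 lay wholly above and 3 wholly below, beside 3.44% and 4.04% of all genes.

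SAT1, which breaks down polyamines and is known for a part in ferroptosis, was the largest of 23 ferroptosis genes. It had 7.35, 7.52 and 7.51 in APR arrays and 6.81, 6.84 and 7.20 in NT arrays (0.51 ± 0.13). The third NT array was nearest the APR group. CYBB, the catalytic subunit of the phagocyte NADPH oxidase, had a log2 change of 0.15 ± 0.07 and ALOX12, a lipoxygenase, one of -0.24 ± 0.07, both without overlap. GCH1, which begins the synthesis of tetrahydrobiopterin, also lay wholly below (-0.19 ± 0.10). Of the 23, 3 lay wholly above and 2 wholly below, beside 3.44% and 4.04% of all genes. The median of the list was -0.02 with 11 members above 0, and 0.04 without the first APR array.

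The other stress programmes gave small shifts. Of 36 ATF4 and amino acid genes, 15 were above 0 with a median of -0.02, and SLC7A11 was the 1 wholly above, beside 3.44% of all genes. ATF3 had 4.78, 3.23 and 4.23 in APR arrays and 4.63, 3.75 and 4.52 in NT arrays, with the second array low in both groups. Of 31 endoplasmic reticulum unfolded protein genes, 9 were above 0 with a median of -0.05, and 4 lay wholly below the NT arrays, beside 4.04% of all genes. The median was 0.00 without the first APR array and -0.02 without the first NT array. DERL3, of the degradation machinery for misfolded proteins, had 7.67, 7.69 and 7.89 in APR arrays and 8.15, 8.09 and 7.93 in NT arrays (-0.31 ± 0.09). MANF, a secreted stress factor, was at -0.24 ± 0.10 and HSPA5, the main chaperone there, at -0.11 ± 0.07, with DNAJB11 at -0.11. Of 33 autophagy and lysosome genes, 24 were above 0 with a median of 0.07, yet NBR1 alone was clear of the NT arrays, beside 3.44% of all genes. That median was 0.11 without the first APR array, 0.03 without the second or the third, and 0.01 without the third NT array. SQSTM1, a cargo receptor that also binds KEAP1, had 9.50, 9.91 and 9.93 in APR arrays and 9.66, 9.63 and 9.35 in NT arrays (0.23 ± 0.12), and TFE3, a factor that drives lysosomal genes, had 7.55, 7.95 and 7.98 in APR arrays and 7.66, 7.59 and 7.29 in NT arrays (0.32 ± 0.12). In both, the first APR array lay among the NT arrays and the other APR arrays above them. The 31 proteasome genes had a median of 0.03, or -0.004 without the second APR array.

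Cholesterol genes, read by the SREBP factors, lay mostly below 0, with 17 of 22 measured and a median of -0.06. INSIG1, a sterol-sensing brake and SREBP target, had 7.99, 7.92 and 7.79 in APR arrays and 8.27, 8.22 and 8.33 in NT arrays (-0.37 ± 0.09). SREBF1, one of the factors, had 6.77, 6.72 and 6.72 in APR arrays and 6.94, 6.90 and 6.98 in NT arrays (-0.20 ± 0.07). With HMGCS1 (-0.12), these 3 were wholly below, beside 4.04% of all genes. The median was -0.11 without the third APR array and -0.04 without the first. The first APR array was the lowest over the list, with a median deviation from the NT mean of -0.17, beside -0.05 and -0.03 in the other APR arrays. HLA class II presentation genes lay below 0 in 13 of 14, with a median of -0.05. It was -0.12 without the second NT array, -0.10 without the third APR array and -0.03 without the first NT array. HLA-DPB1 had 4.81, 4.84 and 4.83 in APR arrays and 5.25, 5.12 and 5.13 in NT arrays (-0.34 ± 0.10). HLA-DRA, at -0.18 ± 0.08, and the invariant chain CD74, at -0.15 ± 0.09, were the others without overlap, beside 4.04% of all genes wholly below. Of 14 HLA class I genes, 10 were below 0 and all groups overlapped.

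Growth and maturation genes differed by little. FLT3, a receptor kinase of early progenitors, had 6.16, 6.05 and 5.83 in APR arrays and 6.32, 6.32 and 6.54 in NT arrays (-0.38 ± 0.14). MYC, the growth factor-induced transcription factor, had 10.85, 11.01 and 11.07 in APR arrays and 11.30, 11.23 and 11.12 in NT arrays (-0.24 ± 0.08). Both were clear of the NT arrays, MYC by a narrow gap. The 31 FLT3 and cytokine signalling genes had a median of -0.01, or 0.02 without the first APR array, with 2 wholly below and 1 above. The 29 MYC and ribosome biogenesis genes had a median of -0.03, with 2 wholly below and 0 above. It was -0.07 without the third APR array and -0.00 without the first NT array. Over all genes 4.04% lay wholly below and 3.44% above. Of 23 progenitor and primary granule genes, 15 were below 0 with a median of -0.09, and 5 lay wholly below, beside 4.04% of all genes. The median was -0.03 without the third APR array. PRTN3, a granule protease, had 12.52, 12.57 and 12.68 in APR arrays and 12.80, 12.81 and 12.80 in NT arrays (-0.21 ± 0.09), MPO was at -0.20 ± 0.11 and AZU1 at -0.19 ± 0.09. CD34, the stem and progenitor antigen, and IKZF1, a lymphoid and myeloid transcription factor, were the others, at -0.15 and -0.09. Of 24 monocyte maturation genes, 16 were above 0 with a median of 0.05. ITGAM, the CD11b integrin, had 7.38, 7.49 and 7.58 in APR arrays and 7.08, 7.12 and 7.26 in NT arrays (0.33 ± 0.09). FPR1, the formyl peptide receptor, was at 0.38 ± 0.15, also without overlap. These are 2 of the 4 members wholly above, beside 3.44% of all genes. TYROBP, an adaptor of myeloid receptors that belongs to the myeloid markers and not to this list, was at 0.30 ± 0.09 without overlap. CD14 and CD163 were at 0.00 and 0.04, S100A9, a calcium-binding alarmin, was wholly above at 0.13 ± 0.09, and VCAN lay wholly below at -0.20 ± 0.10. In bulk RNA, fewer cells of a type and less RNA per cell cannot be told apart.

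Cell division and metabolism lists lay near 0. The 35 G1/S and replication genes had a median of -0.01 and none without overlap. The 34 G2/M genes had a median of 0.05, with 24 above 0, 2 wholly above and 1 wholly below, beside 3.44% and 4.04% of all genes. The member below was CKS1B, a partner of cyclin-dependent kinases, at -0.26 ± 0.18. The median was 0.01 without the second NT array, 0.02 without the second APR array and 0.07 without the third NT array. The 27 respiratory chain genes had a median of -0.04 and 3 wholly below, beside 4.04% of all genes. The first APR array was again low, at -0.16 beside 0.04 and 0.03. The median was 0.02 without that array, 0.04 without the first NT array, -0.07 without the second or the third APR array and -0.08 without the third NT array. DNMT1, the maintenance DNA methyltransferase, was at -0.07 ± 0.07, and all 16 DNA methylation genes overlapped. The interferon genes, 34 measured, had a median of -0.02. Among 27 NF-kB and inflammation genes, TNFAIP2 (0.32 ± 0.11), CXCL3 (0.27 ± 0.11) and NFKB2 (0.19 ± 0.09) had an unadjusted p under 0.05 (limma). These 3 were higher, beside 1.82% of all genes, and the groups overlapped in TNFAIP2 and NFKB2. The list had a median of 0.01, with 1 member wholly above and 1 wholly below, beside 3.44% and 4.04% of all genes. Of 89 H/ACA snoRNAs, which guide pseudouridylation, 52 were below 0, 9 lay wholly below and 1 wholly above, beside 4.04% and 3.44% of all genes, with a median of -0.05. Of 224 C/D box snoRNAs, which guide methylation of RNA, 10 lay wholly below and 2 wholly above, which for the lower side is near the share over all genes. The first APR array was the low one, with a median deviation of -0.15 over the H/ACA genes, beside -0.04 and 0.02. SNORA30 had 3.33, 3.57 and 3.33 in APR arrays and 3.79, 3.93 and 3.93 in NT arrays (-0.47 ± 0.16), so all 3 APR arrays were low there. The 62 cytosolic ribosomal protein genes had a median of -0.02 with 3 wholly below and 0 above, and the 1120 microRNA genes had a median of 0.01 with 32 wholly above and 33 below. The shares over all genes are 3.44% wholly above and 4.04% wholly below, and the ribosomal and microRNA counts lie near or under them.

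Among 31 glycolysis and hypoxia genes the median was 0.03, and -0.01 without either the third APR or the third NT array, with 4 enzymes of glycolysis wholly below the NT arrays and P4HA1, a collagen prolyl hydroxylase, wholly above, beside 4.04% and 3.44% of all genes. PFKM, a phosphofructokinase, had 4.73, 4.73 and 4.90 in APR arrays and 4.97, 5.25 and 5.09 in NT arrays (-0.32 ± 0.11). PFKP, its platelet form, was at -0.12, LDHA, lactate dehydrogenase, at -0.12, and PGK1, phosphoglycerate kinase, at -0.10. Of 24 immediate early genes 11 were above 0. JUN, part of the AP-1 factor, had 8.08, 8.17 and 8.18 in APR arrays and 8.11, 7.84 and 7.73 in NT arrays (0.25 ± 0.09), where the first NT array met the APR group. NR4A2, a nuclear receptor, lay wholly below at -0.26 ± 0.15. MX1, an interferon-induced GTPase, had 6.47, 6.13 and 6.17 in APR arrays and 6.52, 6.55 and 6.55 in NT arrays (-0.28 ± 0.12), the first APR array nearly reaching the NT group. Of 20 sulfur and selenium genes 10 were above 0. MPST, which makes hydrogen sulfide, lay wholly below at -0.23 ± 0.09. Of 26 DNA repair genes 13 were above 0. XRCC6 was the highest of them at 0.34 ± 0.15, with overlapping groups. ATM, the double-strand break kinase, was the 1 wholly above at 0.10, beside 3.44% of all genes. LIG3 and XRCC1, partners in single-strand break repair, were the 2 wholly below at -0.15 and -0.09, beside 4.04% of all genes. Of 14 export transporters 4 were above 0, and ABCA2 was wholly below at -0.19 ± 0.07.

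To see the same drug on other arrays, APR-AZA was set against AZA, a comparison that shares no array with the first. It gave 0 called genes in limma, with 1319 at an unadjusted p under 0.05 (4.69%), 651 of them higher (2.31%) and 668 lower (2.38%). The log2 changes of the 2 comparisons correlated at 0.0646 across the 28125 genes, which are not independent replicates. The NRF2 targets had a median of 0.06 there, with 25 of 36 above 0, beside 49% of all genes. In 9 of the 36 the APR-AZA arrays lay wholly above the AZA arrays, and in 0 below, beside 5.8% and 5.77% of all genes. At an unadjusted p under 0.05 (limma) there were 4 of the 36, all higher, beside 2.31% of all genes. The NRF2 list was drawn up with earlier results of these data known, so these counts also describe it and do not test it. Autophagy and lysosome genes stood as high there, with 25 of 33 above 0, a median of 0.06, 9 wholly above and 0 below. In limma, 0 of them had an unadjusted p under 0.05. Some other medians had the opposite sign there. They were 0.05 for progenitor and granule, 0.07 for respiratory chain and 0.005 for HLA class II genes. For the HSP70 and HSP110 genes and the monocyte genes they were -0.01 and -0.01.

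The NRF2 targets were not in the same order in the 2 comparisons. NQO1 had 10.56, 10.49 and 10.60 in APR-AZA arrays and 10.63, 10.60 and 10.43 in AZA arrays, a log2 change of -0.01 ± 0.09. Its signal in both was far above that in APR cells. The difference between the 2 log2 changes was -0.91 ± 0.13, with an adjusted p of 0.399 over all genes, so it was not called, and no gene was called for that difference in limma, where 990 had an unadjusted p under 0.05 (3.52%), 522 higher (1.86%) and 468 lower (1.66%). SRXN1 was at 0.31 ± 0.08 here too, with 8.76, 8.77 and 8.71 in APR-AZA arrays and 8.43, 8.43 and 8.46 in AZA arrays. GSR had 11.35, 11.39 and 11.41 in APR-AZA arrays and 11.24, 11.17 and 11.23 in AZA arrays (0.17 ± 0.08). EPHX1, close to 0 in APR cells, had 8.88, 8.89 and 8.85 in APR-AZA arrays and 8.51, 8.40 and 8.64 in AZA arrays (0.35 ± 0.08). The difference between its 2 changes was 0.27 ± 0.11 and was not called. ME1, GCLM and SLC7A11 were at -0.01, 0.04 and 0.07.

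**Figure D4:**
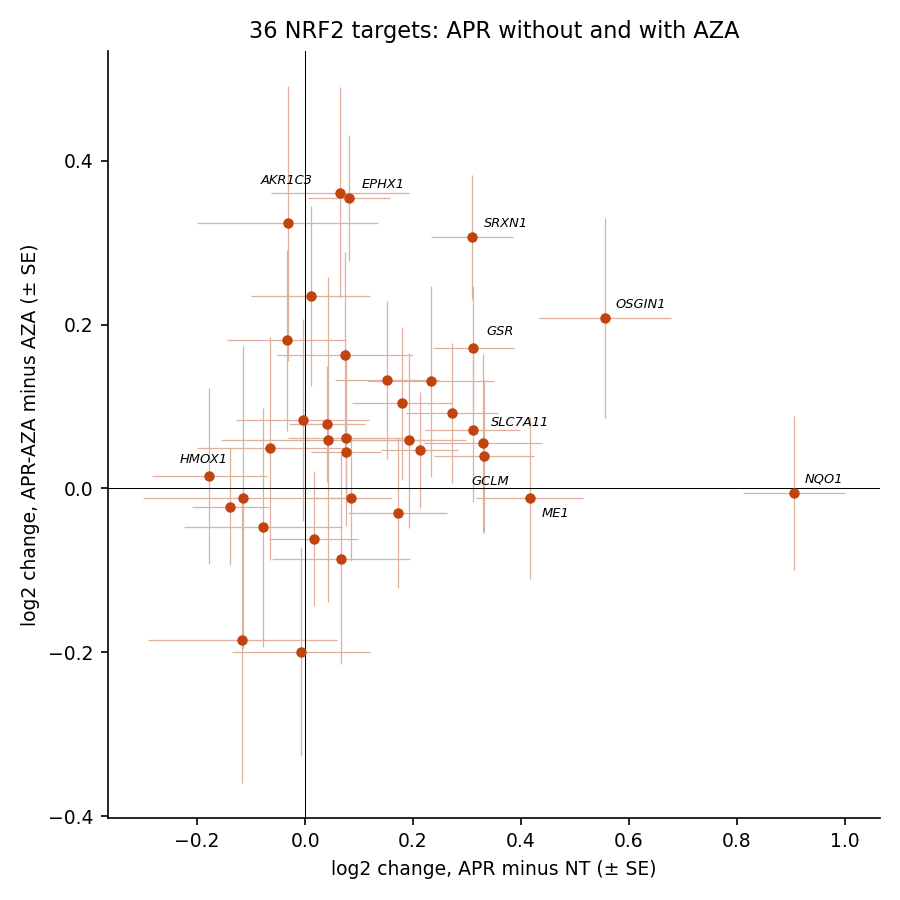
Log2 change of the 36 NRF2 targets measured, APR minus NT on the horizontal axis and APR-AZA minus AZA on the vertical axis, with SE as whiskers; the 2 axes share no array. NQO1 is at 0.91 and -0.01, SRXN1 at 0.31 on both, and EPHX1 at 0.08 and 0.35.

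ZNF366 had 8.50, 8.38 and 8.51 in APR-AZA arrays and 8.61, 8.54 and 8.42 in AZA arrays. RAB7B had 8.54, 8.55 and 8.34 in APR-AZA arrays and 8.40, 8.54 and 8.49 in AZA arrays. LUCAT1 had 8.82, 8.45 and 8.64 in APR-AZA arrays and 8.57, 8.41 and 8.16 in AZA arrays. As with NQO1, the signal of these genes was higher in AZA arrays than in any APR array, and the APR-AZA and AZA arrays overlap. Of the low genes, C11orf96 had 3.93, 4.15 and 3.95 in APR-AZA arrays and 4.34, 4.41 and 4.40 in AZA arrays (-0.37 ± 0.08), wholly below as it was without AZA. GABRA4 had 6.29, 6.24 and 6.05 in APR-AZA arrays and 6.63, 6.57 and 6.49 in AZA arrays (-0.37 ± 0.09), also wholly below. CCL3L3 went the other way, with 7.32, 7.41 and 7.25 in APR-AZA arrays and 7.02, 7.01 and 7.15 in AZA arrays (0.26 ± 0.07), and its difference of 0.58 ± 0.10 had an adjusted p of 0.774. The heat shock genes HSPA1B, HSPA1A and BAG3 were at 0.00, -0.00 and 0.01. PMAIP1 and SAT1 were at 0.05 and 0.14, and CDKN1A at 0.23 ± 0.10.

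**Figure D5:**
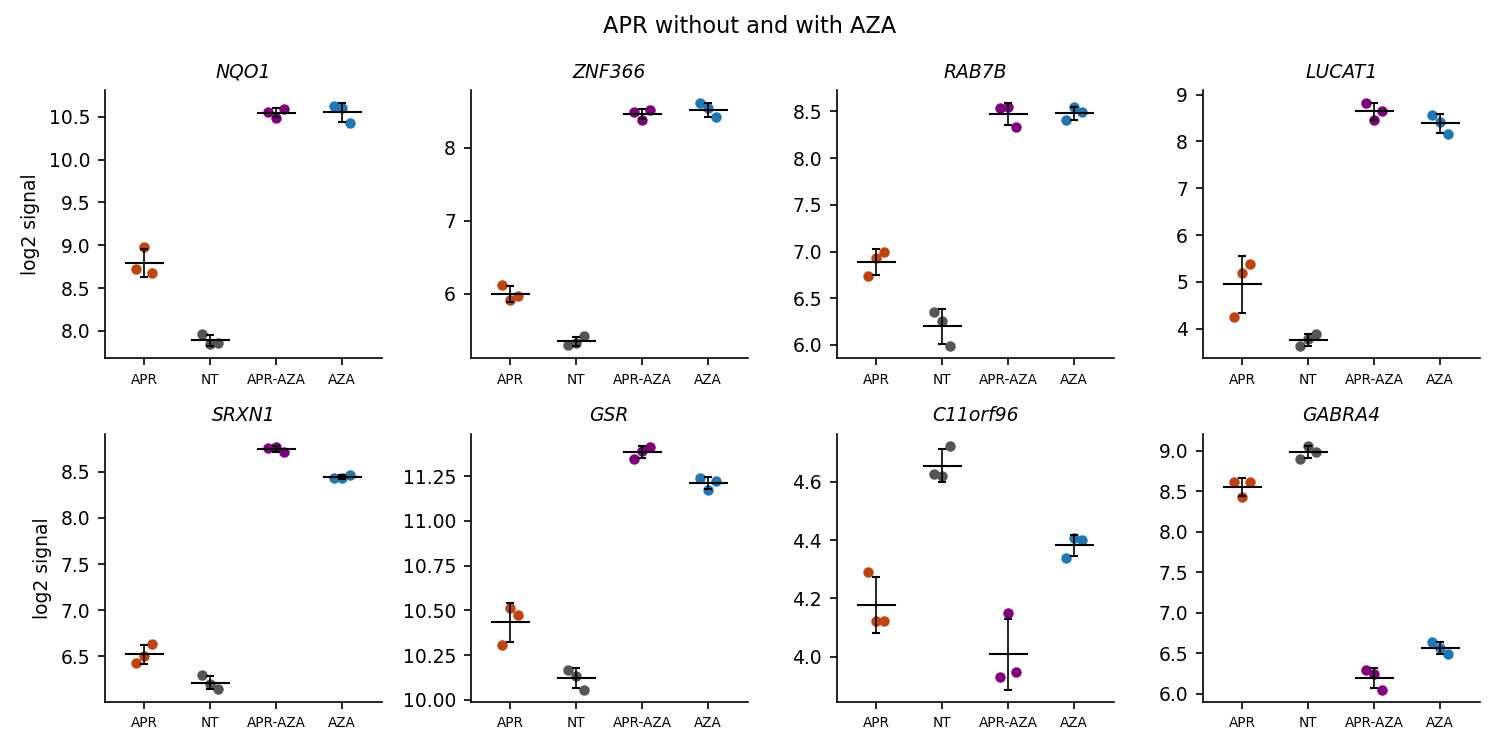
Log2 signal of 8 genes on every array of the 4 groups, APR and NT on the left and APR-AZA and AZA on the right of each panel, with group means (bars) and SD (whiskers); each panel has its own vertical axis. NQO1, ZNF366, RAB7B and LUCAT1 are higher in APR than in NT arrays but overlap between APR-AZA and AZA, while C11orf96 and GABRA4 are lower in the APR-containing group of both pairs.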

How the data were processed

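RNA of SKM1 cells was hybridised to Affymetrix whole-transcript arrays, 12 in all, 3 per group, from 250 ng of total RNA each, per the labels' protocols. The deposited values are on the log2 scale, 1 value per row and array. RMA and Partek are the tools named, per the submitters' processing notes, with no version. RMA subtracts background, makes array distributions equal and summarises probes, so a shift shared by most genes would be lost and low signals are compressed. No chip definition or genome build is given in the sources used here. Array medians were 4.69 to 4.78. Arrays have no counting depth, and their number limits the precision.

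Symbols came from the platform annotation: 1284 rows had none and were left out, and 4 symbols on more than 1 row kept the row with the highest mean. Any pair of arrays shared no more than 0.0952% identical values. No signal filter was applied. limma 3.58.1 in R 4.3.3 (lmFit, eBayes) fitted a mean for each of 4 groups over all 12 arrays (8 residual degrees of freedom), with Benjamini-Hochberg adjustment over 28125 genes and a threshold of 0.05. The contrasts were APR minus NT, APR-AZA minus AZA, and their difference. Intervals are 95% intervals of that fit. The calls of the fit were tried on simulated data, only with changes larger than nearly all of those measured here, and the coverage of the intervals was not tested. The alternatives tried were another filter, normalization, centring, variance model, sample set, block, weights and row choice, and leaving out each array.

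Genes named were those called, the 12 highest and 12 lowest moderated t among RefSeq-named genes, up to 6 list members with the largest change at an unadjusted p under 0.05 or the 2 largest, and a fixed set (CDKN1A, MDM2, BBC3, PMAIP1, HMOX1, SLC7A11, TXNRD1, GCLC, GCLM, SRXN1, GPX4, MYC, FLT3, DNMT1). Other members named for their role, for lying without overlap, or for a value set beside these, and LOC107987303, LINC00494 and marker genes, were chosen after their values were seen. The 38 lists held 967 entries, 891 of them measured. Members and lists were chosen with earlier results of these data known, so no list was tested. Results that need one withheld gene are not reported here.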

Additional observations from a re-analysis of the deposited data

How the results depend on the processing

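Against the main count of 1 gene called in APR against NT, 2 were called without the dimmest 30% of genes (NQO1 and ZNF366) and 0 without variance moderation, with the compared groups alone or with the replicate number as a block. Leaving out each array gave 0 to 2, with 2 (NQO1 and LUCAT1) without APR replicate 1 and 0 without NT replicate 2 or 3. For NQO1 the log2 change was 0.91 without moderation, with the groups alone and with the replicate block, at adjusted p-values of 0.202, 0.437 and 0.0533, and 0.81 to 0.97 when each array was left out. Over all alternatives its adjusted p was 0.000785 to 0.437. Same-numbered APR and NT arrays did not deviate together (r = -0.191, -0.155 and -0.0704), and no array correlated best with its own number. With 3 arrays in each group these values cannot settle whether the numbers mark a shared culture or day, and the labels do not say. Genes at an unadjusted p under 0.05 numbered 773 to 1553. APR-AZA against AZA and the difference kept 0 calls under every alternative run. The difference has no fit of the compared groups alone. Of 1644 values of 103 named genes, 7 changed sign: MDM2 to -0.0023 with repeated quantile normalization and -0.0103 with array weights, and others when an array was left out, with ranges of -0.0411 to 0.364 for AKR7A2 (lowest without NT replicate 3), -0.572 to 0.203 for ATF3 (highest without APR replicate 2) and -0.0868 to 0.0721 for MDM2 (below 0 on leaving out APR array 1 or either of NT arrays 1 and 2). The cause was not tested. Of 608 list medians, 588 moved by no more than the SD between arrays within a group. That is a wide yardstick, and some alternatives, such as no variance moderation, leave every log2 change as it was. By sign, 22 of the 38 list medians changed when 1 array was left out. Array number limits these values, and the 1284 rows without a symbol held 0 calls and 57 at an unadjusted p under 0.05 in limma.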
